A study of Mus musculus with 6 samples.

Results

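ATP-binding cassette (ABC) transporter genes were described in ileal organoids given retinoic acid. They were taken as the rows of the count table whose symbol is Abc, a subfamily letter from a to g and a number, with or without a closing a or b. This gave 49 genes of 21534 rows: 16 in subfamily ABCA, 10 in ABCB, 10 in ABCC, 3 in ABCD, 1 in ABCE, 3 in ABCF and 6 in ABCG. The organoids, labelled stem cell enteroid, were derived from wild-type C57Bl/6 mouse ileum. All of them, controls included, spent 96 hours with 10 µM CHIR99021, which blocks the kinase GSK3 and so turns on Wnt signalling. They then received Vehicle/DMSO or 10 µM all-trans retinoic acid for 24 hours, with 3 libraries of polyadenylated RNA in each group. Age and sex of the mice are unknown here, and the labels tie no library to its own animal or culture. The p-values thus measure only how these libraries vary, which may be technical variation.

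ABC proteins bind and split ATP to drive substrates across membranes. In the intestinal epithelium those of the apical face return drugs, conjugates and plant sterols to the lumen, and those of the basolateral face pass conjugates, bile acids and cholesterol to the blood. Others work in peroxisomes and mitochondria, while the ABCE and ABCF proteins carry nothing and act on ribosomes.

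Total counts ran from 14919144 to 21833846 per library, and the ABC genes took 34835 to 51648 of them. Markers of crypt stem cells, the labelled cell type, were present: 6 of 6 were tested, 4 were called lower and 0 higher, and their summed level was 1569 to 1633 CPM with vehicle and 959 to 1010 CPM with retinoic acid (CPM, counts per 1000000 of the library size scaled by the trimmed mean of M-values). Enterocyte markers were present too, with 14 of 14 tested, 2 called higher and 2 lower, and a summed level of 1713 to 1999 against 1726 to 2064 CPM. Of 10 proliferation markers 8 were called lower, from 570 to 629 CPM in sum to 395 to 455 CPM. Over all tested genes 5.37% were called higher and 4.09% lower. The part of these shifts in the ABC results was not tested, and in such bulk RNA a change in the number of cells of a type cannot be told apart from a change in RNA per cell. The summed level of fibroblast markers was at most 2.92 CPM and that of endothelial markers at most 2.83 CPM. The 7 leukocyte markers summed to 21.8 to 26.2 CPM, and 3 of them were tested, with 0 called. The pan-leukocyte gene Ptprc had 0 counts in 5 of 6 libraries, so it does not stand for the whole list. Of 5 hepatocyte markers 4 were found and 2 tested, 1 called higher and 1 lower, and they summed to 105 to 113 CPM with vehicle and 112 to 186 CPM with retinoic acid. Library 3 stood apart in each group: its counts differed from those of the others by a chi-square of 6.45 to 7.33 per gene with vehicle and 10.4 to 11.1 with retinoic acid, against 4.82 and 4.09 between libraries 1 and 2. Results were therefore also computed without it.

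Retinoic acid raised 6 ABC genes and lowered none by edgeR's quasi-likelihood test at a Benjamini-Hochberg adjusted p under 0.05. These were the conjugate exporter genes Abcc1, Abcc2 and Abcc3, the peroxisomal transporter gene Abcd3, and Abcg1 and Abcg2, which export sterols and drugs. The changes were modest, from 1.25-fold for Abcd3 to 1.94-fold for Abcg1. The 6 were 18.2% of the 33 tested members, where 5.37% of all 13700 tested genes were higher (736 genes), 4.09% were lower (560 genes) and 9.46% were called in either direction. With the replicate number as a block 7 members were higher and 2 lower, and 2276 genes were called in all instead of 1296. Over all genes leaving out retinoic acid library 1 gave 443 higher and 289 lower, vehicle library 1 gave 477 and 355, and vehicle library 2 gave 528 and 346. Of the 33, 11 reached an unadjusted edgeR p under 0.05, as did 2960 of all 13700 tested genes. Over the tested members the median log2 fold change was 0.039, beside −0.0080 over all tested genes. All 3 retinoic acid libraries lay above all 3 vehicle libraries for 11 members, or 33.3%, and below them for 3, or 9.09%. Over all tested genes these shares were 12.9% and 12.6%. The authors' deposited table listed 5 of the 6 as higher at an FDR under 0.05 (3.32% of its rows), with Abcg1 at an FDR of 0.12, and no member as lower (2.13% of its rows).

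**Figure D1:**
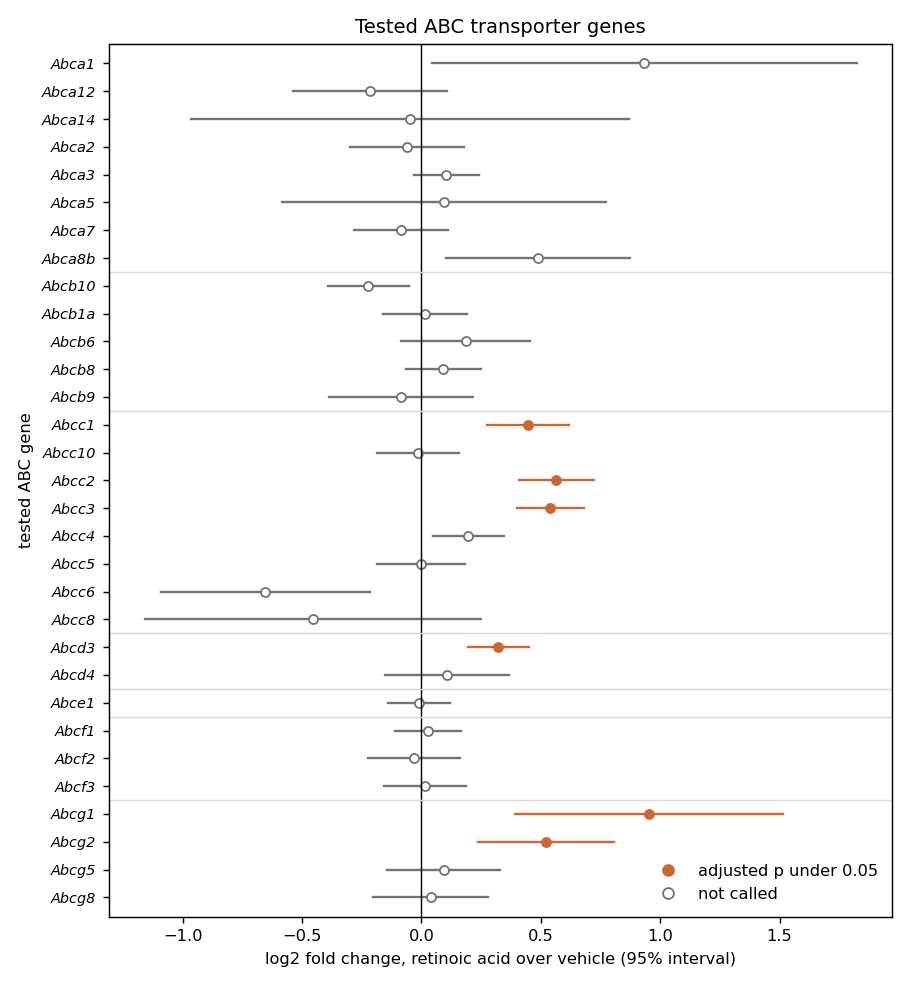
Log2 fold change of retinoic acid over vehicle for 31 of the 33 tested ABC genes, with 95% intervals as horizontal lines and grey rules between subfamilies. Filled orange points are the 6 genes at an adjusted p under 0.05. Open grey points were not called, and most of these lie near 0.

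Sequence just before the start sites of Abcc2, Abcd3 and Abcg2, 3 of the 6 raised genes, is shown so that their letters can be read beside their values. RefSeq windows of build GRCm38.p6 were matched by symbol for 38 of the 49 members, and the 250 bases before each start were searched on both strands. Capitals mark the hexamer AGGTCA, the core of sites bound by retinoic acid receptors and other nuclear receptors, in either orientation. Stretches end where an annotated exon of the gene begins. They lie at chr19:43782058-43782191 (+) for Abcc2, chr3:121815303-121815552 (−) for Abcd3, and chr6:58584283-58584522 (+) and chr6:58640296-58640545 (+) for the distal and proximal starts of Abcg2.
Abcc2: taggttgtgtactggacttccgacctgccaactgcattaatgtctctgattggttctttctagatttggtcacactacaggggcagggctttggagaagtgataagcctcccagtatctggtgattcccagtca
Abcd3: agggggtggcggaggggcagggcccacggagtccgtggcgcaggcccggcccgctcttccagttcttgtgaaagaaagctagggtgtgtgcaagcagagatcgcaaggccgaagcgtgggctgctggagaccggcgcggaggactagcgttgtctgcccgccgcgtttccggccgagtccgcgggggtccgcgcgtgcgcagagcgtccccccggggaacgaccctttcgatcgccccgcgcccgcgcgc
Abcg2 distal: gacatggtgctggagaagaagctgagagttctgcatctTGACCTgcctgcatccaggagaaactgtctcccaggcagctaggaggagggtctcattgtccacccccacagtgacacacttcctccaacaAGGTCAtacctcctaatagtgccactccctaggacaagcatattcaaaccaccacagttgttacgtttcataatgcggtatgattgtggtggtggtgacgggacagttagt
Abcg2 proximal: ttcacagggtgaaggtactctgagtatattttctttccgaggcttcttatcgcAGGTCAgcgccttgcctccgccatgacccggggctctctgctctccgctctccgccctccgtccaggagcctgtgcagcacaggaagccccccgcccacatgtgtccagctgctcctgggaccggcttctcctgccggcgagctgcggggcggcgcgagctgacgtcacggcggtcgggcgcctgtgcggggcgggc
The hexamer was found 116 and 207 bases before the distal Abcg2 start and 192 bases before the proximal one, and there was no match in the Abcd3 stretch. For Abcc2 it lay 44 bases before the RefSeq start, inside a longer first exon of GENCODE and so outside the printed stretch. The same Abcc2 exon held TGACATAGC, a match to the core of antioxidant response elements (TGACNNNGC), 90 bases before the start. Single hexamers are common: 14% of all 32851 windows held AGGTCA and 10.2% held TGACNNNGC, against 15.6% and 8.89% of the 45 member windows. The full direct repeat of AGGTCA spaced by 5 bases (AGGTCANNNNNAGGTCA), which allows no mismatch, was in 3 windows of all and in none of the members. Of the 3 windows of Abcg2, the shown ones are those that held the hexamer. The stretches differed in base composition, since the Abcd3 stretch held 34 CpG and was 72% G or C, while the Abcc2 stretch held 1 CpG in 134 bases.

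The exporters of glutathione, glucuronide and sulfate conjugates had the smallest p-values of the members. Abcc2 (ENSMUSG00000025194, mm10 chromosome 19, 43782192 to 43837951) encodes MRP2, which sits in the apical membrane. It had 120, 123 and 138 CPM in vehicle libraries 1, 2 and 3, and 194, 198 and 172 CPM in retinoic acid libraries 1, 2 and 3. The groups did not overlap, and library 3 was the highest with vehicle and the lowest with retinoic acid. The change from 127 ± 9.54 to 188 ± 14.1 CPM (SD, n = 3) was 1.48-fold, with a log2 fold change of 0.56, a standard error (SE) of 0.07 and an adjusted p of 0.000184 by edgeR. Abcc3 (ENSMUSG00000020865, chromosome 11, 94343295 to 94392997) encodes MRP3, the basolateral counterpart that also carries bile salts. Its levels were 177, 196 and 167 CPM with vehicle and 269, 262 and 254 CPM with retinoic acid, again without overlap. It rose 1.45-fold (log2 fold change 0.54, SE 0.07, edgeR adjusted p = 9.94e-05).

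Abcc1 (ENSMUSG00000023088, chromosome 16, 14361558 to 14475737) encodes MRP1, a basolateral exporter of glutathione conjugates and leukotriene C4. It had 117, 104 and 103 CPM with vehicle and 157, 155 and 130 CPM with retinoic acid. Retinoic acid library 3 was closest to the controls but still above each of them. The rise was 1.36-fold (log2 fold change 0.44, SE 0.08, edgeR adjusted p = 0.0026). Calls of Abcc1, Abcc2 and Abcc3 were kept whichever library was left out, with adjusted p up to 0.0204, 0.00319 and 0.00142. Per kb of exon the ratio of Abcc2 to Abcc3 was 0.422, 0.393 and 0.514 with vehicle and 0.451, 0.470 and 0.421 with retinoic acid. These ranges overlap.

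**Figure D2:**
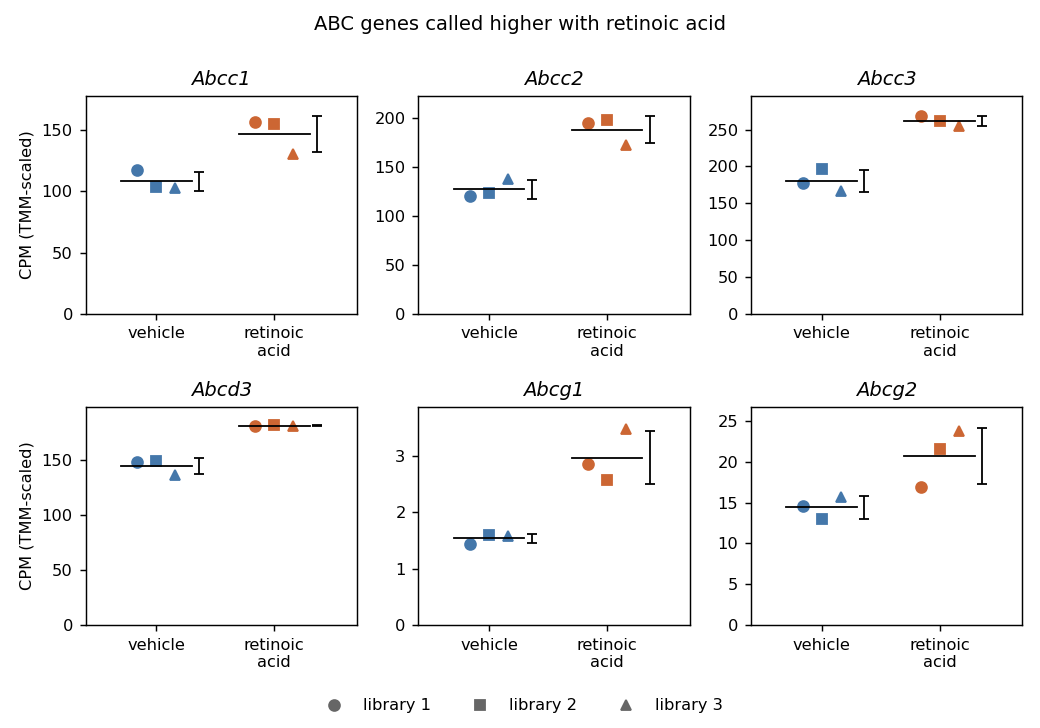
Level in CPM of the 6 ABC genes called higher, by library, with a line at the mean of each group, an error bar of 1 SD and an axis from 0. The retinoic acid libraries lie above the vehicle libraries in each panel.

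The other ABCC members were not called in the fit with treatment alone. Abcc4, which encodes MRP4, an exporter of cyclic nucleotides and prostanoids, had 54.4 ± 1.43 and 62.3 ± 2.43 CPM (SD, n = 3) with no overlap between the groups. It was not called (log2 fold change 0.20, edgeR adjusted p = 0.0992). Only the fit with the replicate number as a block called it higher (0.20, adjusted p = 0.0331). With 1 library left out its adjusted p ran from 0.0921 to 0.361. Abcc6, an ATP-releasing family member best known from mineralisation disorders, had 6.47, 7.46 and 5.33 CPM with vehicle and 3.37, 5.08 and 3.94 CPM with retinoic acid, lower in every library, and is named here after its values were seen. Its log2 fold change was −0.65 (SE 0.20, edgeR adjusted p = 0.0622), and it was called lower with the block (adjusted p = 0.0207). It was also called without vehicle library 3 (adjusted p = 0.0418) or retinoic acid library 2 (0.0407), each alone. So it was without both libraries numbered 3 (0.0351) and with no filter on low counts (0.019). Abcc6 was not called without vehicle library 1 (adjusted p = 0.154) or 2 (0.232), or retinoic acid library 1 (0.257) or 3 (0.0773), each alone. Nor was it called with DESeq2 (adjusted p = 0.0993) or limma-voom (0.0551). The other 3 tested ABCC genes were not called. The lowest of them, Abcc8, named after its values were seen, had a log2 fold change of −0.46 with no overlap between the groups and a 95% interval of −1.16 to 0.25.

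Summed over its genes, ABCC stood at 583, 588 and 575 CPM with vehicle and at 795, 778 and 732 CPM with retinoic acid. Its share of all ABC counts, in CPM, was 25.1% to 27% with vehicle and 28.5% to 32.8% with retinoic acid. ABCD was also higher in sum, at 176 to 192 CPM against 221 to 225 CPM. The sums of ABCB, ABCE, ABCF and ABCG overlapped between the groups, and those of ABCA differed little, at 177 to 178 against 179 to 184 CPM. These sums describe chosen members and were not tested.

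**Figure D3:**
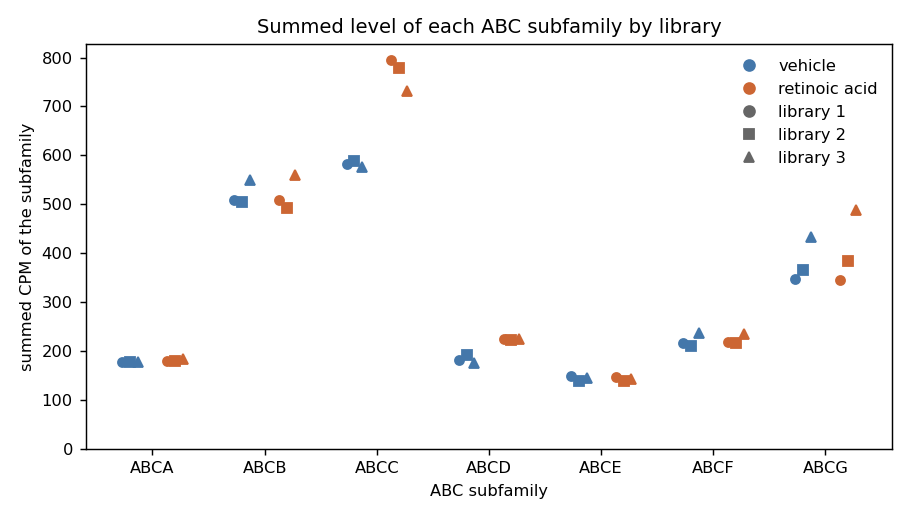
Summed CPM of the members of each ABC subfamily, by library, with vehicle in blue, retinoic acid in orange and a marker shape for each library number. ABCC and ABCD stand higher in each retinoic acid library, and ABCG is highest in library 3 of either group.

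Of the 4 tested sterol and drug exporters of subfamily ABCG 2 were called higher, where 5.37% of all tested genes were higher. Whether these 2 differed from the other 2 was not tested. Abcg2 (ENSMUSG00000029802, chromosome 6, 58584523 to 58692869) encodes the apical drug and urate exporter BCRP. It had 14.6, 13 and 15.7 CPM with vehicle and 17, 21.6 and 23.8 CPM with retinoic acid, without overlap, and library 1 was the lowest of the retinoic acid group. It rose 1.44-fold (log2 fold change 0.52, SE 0.13, edgeR adjusted p = 0.0226). Leaving out vehicle library 1 ended the call (adjusted p = 0.0728), as did leaving out vehicle library 2 (0.11) or the retinoic acid libraries 2 (0.0736) and 3 (0.051), each alone. Abcg1 (ENSMUSG00000024030, chromosome 17, 31057698 to 31115777), which moves cholesterol to high-density lipoprotein, had the largest fold of the 6 and the lowest level. It stood at 1.44, 1.6 and 1.58 CPM with vehicle and 2.86, 2.58 and 3.49 CPM with retinoic acid, which rests on 76 and 168 counts. The rise was 1.94-fold (95% interval 1.31 to 2.86; log2 fold change 0.95, SE 0.26, edgeR adjusted p = 0.0347). Its call was lost whichever library was left out (adjusted p from 0.0543 without retinoic acid library 2 to 0.124 without vehicle library 1) and with DESeq2 (adjusted p = 0.0763).

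Abcg5 and Abcg8 encode the partners of the apical plant sterol and cholesterol exporter and lie head to head on chromosome 17. The bases between the Abcg5 start on the minus strand and the nearer Abcg8 start on the plus strand are shown because both genes begin at its ends (chr17:84683012-84683120, plus strand). It is 109 bases long. Capitals mark a match to the letters TATAAA on the minus strand, 79 bases before the Abcg5 start and 26 bases before the Abcg8 start; 12.4% of all windows hold these letters on either strand.
Abcg5-Abcg8: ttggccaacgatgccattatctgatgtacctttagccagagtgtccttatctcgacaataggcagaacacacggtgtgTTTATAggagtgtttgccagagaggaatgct
Abcg5 had 154, 162 and 182 CPM with vehicle and 150, 163 and 218 CPM with retinoic acid. Abcg8 had 177, 188 and 233 CPM with vehicle and 175, 196 and 243 CPM with retinoic acid. Both were highest in library 3 of each group and overlapped between the groups. Neither was called, with log2 fold changes of 0.092 (95% interval −0.14 to 0.33) and 0.039 (−0.20 to 0.28), which turned negative without retinoic acid library 3 (−0.085 and −0.10). That of Abcg5 was also negative without both libraries numbered 3 (−0.017), and that of Abcg8 without vehicle library 1 (−0.041). Per kb of exon the ratio of Abcg8 to Abcg5 stayed between 0.719 and 0.828 over the 6 libraries. It is not known here whether counting used strand, and their annotated exons share 40 bases, so a few reads could belong to either gene.

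Abcb1a, the main intestinal P-glycoprotein gene, had 244, 247 and 290 CPM with vehicle and 255, 240 and 293 CPM with retinoic acid, with library 3 highest in both groups. Its log2 fold change was 0.014 (95% interval −0.16 to 0.19), so a change above 1.14-fold or below 0.894-fold lies outside the interval. The sign turned without retinoic acid library 3 (−0.071) and, each alone, without the vehicle libraries 1 (−0.032) and 2 (−0.020). Its paralogous neighbour Abcb1b had 54 counts over all 6 libraries and was removed by the filter on low counts. How reads that match both genes were counted is not known here. Library 3 was the highest of its group with either treatment for 9 of the 33 tested members (27.3%, beside 19.3% of all tested genes), among them Abcb1a, Abcg2, Abcg5, Abcg8 and Abcf1. The enterocyte markers were also highest in sum in library 3, at 1999 and 2064 CPM, and their part in this was not tested.

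**Figure D4:**
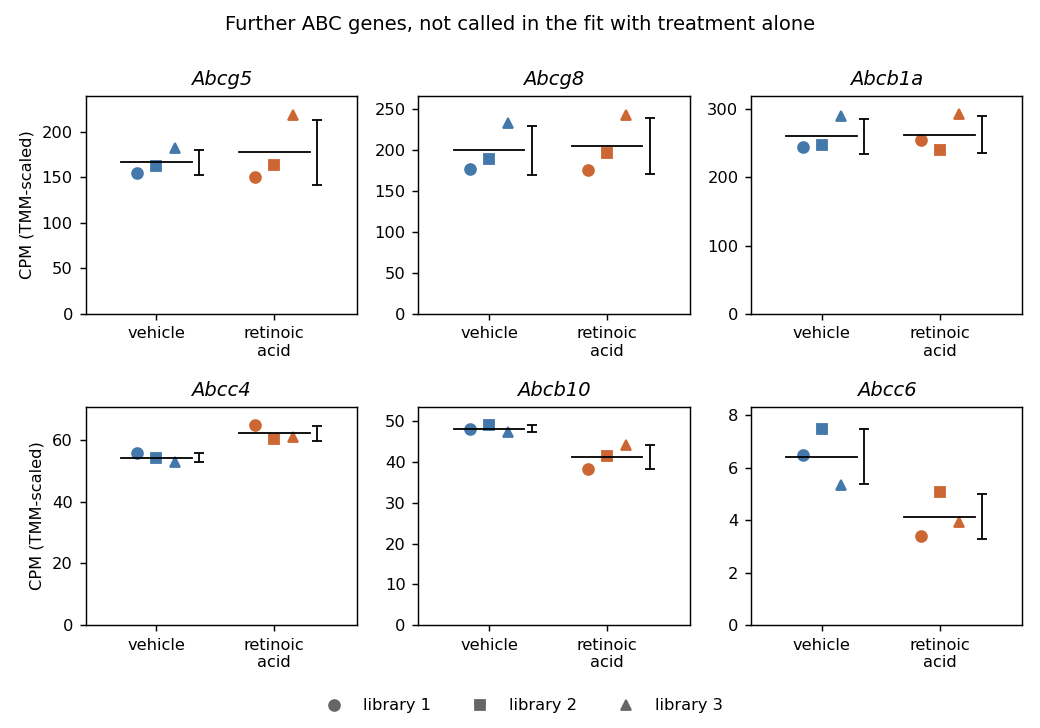
Level in CPM by library of Abcg5, Abcg8, Abcb1a, Abcc4, Abcb10 and Abcc6, with a line at the mean of each group, an error bar of 1 SD and an axis from 0. Library 3, the triangle, is the highest of both groups for Abcg5, Abcg8 and Abcb1a, while Abcc4, Abcb10 and Abcc6 show no overlap between the groups.

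In subfamily ABCA none of the 8 tested genes was called. Abca1, which loads cholesterol and phospholipid onto apolipoprotein A-I, had 1.44, 2.13 and 0.329 CPM with vehicle and 2.44, 2.64 and 2.53 CPM with retinoic acid. The low value of vehicle library 3 rests on 5 counts. The log2 fold change of 0.93 had a 95% interval of 0.04 to 1.82 (edgeR adjusted p = 0.205). Abca1 was called with no filter on low counts (adjusted p = 0.0398), where 1720 genes were called in all instead of 1296. No fit with 1 library left out called it (adjusted p from 0.0885 to 0.431). The log2 fold change was 0.50 without vehicle library 3 and 1.47 without vehicle library 2. Abca8b and Abca3, named after their values were seen, completed the ABCA genes without overlap, at 4.31 ± 0.543 against 6.05 ± 0.494 CPM and 86.1 ± 4.39 against 92.7 ± 1.07 CPM (SD, n = 3). Their log2 fold changes were 0.49 and 0.10 (edgeR adjusted p = 0.118 and 0.385). Over all tested genes 12.9% were separate with retinoic acid higher. Opposite-strand genes overlap 3.25% of the exonic bases of Abca8b and 14.1% of those of Abca3.

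Abcd3 (ENSMUSG00000028127, chromosome 3, 121758909 to 121815302) encodes PMP70, which brings branched and long-chain acyl-CoAs and bile acid precursors into peroxisomes. It had 148, 149 and 136 CPM with vehicle and 181, 181 and 180 CPM with retinoic acid. The retinoic acid libraries were nearly equal and all above the controls. The rise was 1.25-fold (log2 fold change 0.32, SE 0.06, edgeR adjusted p = 0.00313), and no single left-out library ended the call (adjusted p at most 0.0184). Abcd4, which acts in lysosomal cobalamin export and is named after its value was seen, had a log2 fold change of 0.11 and was not called.

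Over all tested genes the groups were separate with retinoic acid higher for 12.9% and lower for 12.6%. Of the 6 tested ABCB genes they were separate for 1, Abcb10, an inner membrane protein needed for heme synthesis. It had 48.1, 49 and 47.3 CPM with vehicle and 38.2, 41.6 and 44.1 CPM with retinoic acid. Its log2 fold change was −0.22 (SE 0.08, edgeR adjusted p = 0.102). It was called lower with the replicate block (adjusted p = 0.0376), without retinoic acid library 3 (0.04) and without both libraries numbered 3 (0.0385). No other fit with 1 library left out called it (adjusted p up to 0.404), and neither did the fit with no filter (0.157). An antisense gene overlaps 9.5% of its exonic bases.

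The 4 tested ABCE and ABCF genes were not called. Abce1, which splits ribosomes after termination, had 150, 139 and 145 CPM with vehicle and 148, 139 and 144 CPM with retinoic acid. Abcf1, a partner of initiation factor eIF2, had 118, 117 and 125 against 118, 119 and 130 CPM. Their log2 fold changes were −0.0095 (95% interval −0.14 to 0.12) and 0.029 (−0.11 to 0.17), each of which changed sign under some settings given later. Of the 27 tested members that were not called, 21 had a 95% interval inside a 1.5-fold change in either direction.

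Compared per kb of exon, Abcg5 was the highest member with vehicle, at 63.8, 67.1 and 75.1 CPM per kb. Abcg8 came next at 47.2, 50.2 and 62.2 CPM per kb, then Abcb1a at 48.8, 49.4 and 58, and these neighbours overlapped with each other but not with Abcg5. Abcd3 (37.5 to 41.2), Abce1 (36.6 to 39.5), Abcf1 (37.1 to 39.5) and Abcc3 (33.4 to 39.1 CPM per kb) followed and could not be ordered. With retinoic acid Abcc3 stood at 50.8 to 53.7 and Abcd3 at 49.7 to 50 CPM per kb, inside the ranges of Abcb1a (48 to 58.7) and Abcg8 (46.8 to 64.7). Lengths came from a reference annotation that may differ from the authors'.

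**Figure D5:**
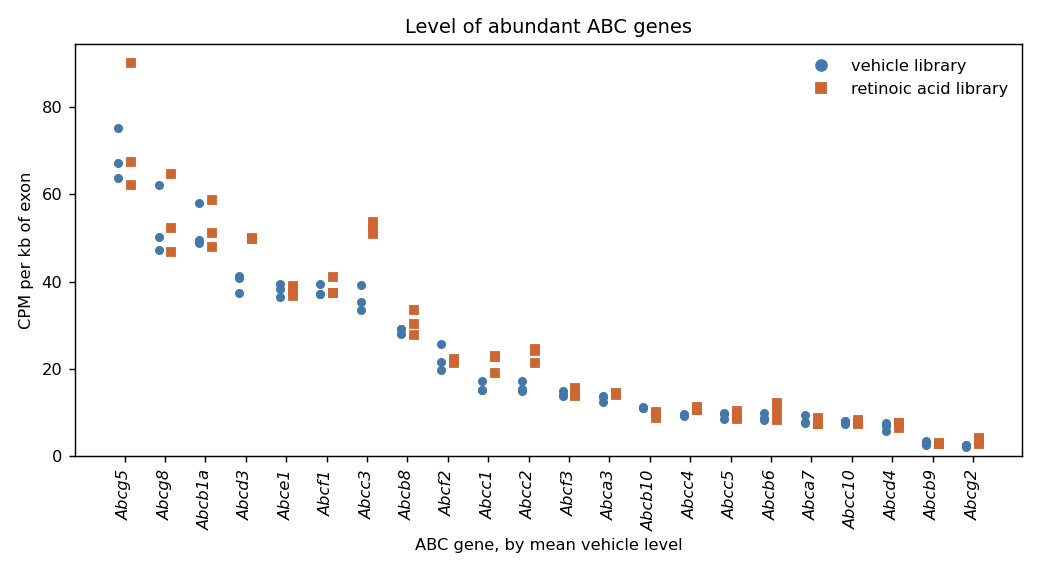
Level per kb of exon, in CPM per kb, of 22 of the 24 ABC genes most abundant with vehicle, in that order, with a blue circle for each vehicle library and an orange square for each retinoic acid library. Abcc3, Abcd3, Abcc1 and Abcc2 lie higher with retinoic acid, as do Abca3, Abcc4 and Abcg2 by less on this scale. Abcb10 lies lower, and Abcg5 is the highest in vehicle libraries.

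The other 16 members had 4 to 54 counts over all 6 libraries and were removed by the filter on low counts. They include, named for their known roles, Abcb11, the bile salt export pump gene of hepatocytes, Abcb4, the phosphatidylcholine transporter gene of bile formation, and 8 ABCA genes. Abca9 had 5, 3 and 1 counts with vehicle and 0 in each retinoic acid library, which allows up to 0.0537 CPM over that group (3 counts, counting error only). It is named after its values were seen. With no filter edgeR tested all 49 members, and the 7 it called higher and the 1 it called lower were not among these 16.

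The family members under other names, Cftr, Tap1 and Tap2, were read from a fixed list of 7 genes with the peptide loading partners. Of the 7, 1 partner rose and 1 family member fell, where 5.37% of all tested genes were higher and 4.09% lower. Cftr, the apical chloride channel of the ABCC subfamily, fell by 0.52 on the log2 scale (SE 0.07, edgeR adjusted p = 0.000283), from 180, 161 and 152 to 116, 118 and 110 CPM. This is opposite to Abcc1, Abcc2 and Abcc3. The peptide transporter genes Tap1 and Tap2 were not called (log2 fold changes 0.13 and 0.24, edgeR adjusted p = 0.6 and 0.219), and Calr, a chaperone of peptide loading, rose 1.21-fold.

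Regulators that are known to act on ABC genes were called higher for 8 of 23 tested and lower for 1, where 5.37% of all tested genes were higher and 4.09% lower. Nfe2l2, the oxidant-responsive factor NRF2 that has conjugate exporter genes among its targets, had 476, 475 and 463 CPM with vehicle and 805, 824 and 812 CPM with retinoic acid. It rose 1.73-fold (edgeR adjusted p = 1.89e-07). Nr1i2, the drug sensor PXR, rose 1.24-fold (edgeR adjusted p = 0.0153), a call that ended when vehicle library 1 (0.0807) or retinoic acid library 2 (0.0736) was left out. Ppara, a fatty acid sensor, rose 2.38-fold, Rarg 1.44-fold, and the vitamin D receptor gene Vdr fell by 0.47 on the log2 scale. Leaving out 1 library gave 3 higher (vehicle 1), 4 (retinoic acid 2) or 5 (retinoic acid 1), and 2 lower for vehicle 1 or retinoic acid 3. With the replicate block 9 were higher and 3 lower. This list was chosen with earlier results of these data known, and the part of these regulators in the ABC results was not tested.

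Other lists, also chosen with earlier results of these data known, hold genes that work beside the ABC proteins. Their counts stand beside the same 5.37% higher and 4.09% lower over all tested genes. Of 18 tested bile acid and organic anion carriers 4 rose and 1, Slc10a2, fell by 0.41 on the log2 scale (edgeR adjusted p = 0.00849). The risers were Fabp6, Slc51b and Slc51a, with log2 fold changes of 7.80, 4.13 and 2.69, and, named after its value was seen, Slc22a23 (0.22). The block gave 5 higher and 2 lower carriers. Of 17 sterol and lipoprotein partners 2 rose and 2 fell: Mttp, the lipid loader of apolipoprotein B, rose 1.44-fold and Soat2, which esterifies cholesterol, by a log2 fold change of 0.26, while Scarb1, a lipoprotein receptor, fell by 1.04 and Apob by 0.40 on the log2 scale. The call of Soat2 (edgeR adjusted p = 0.0496) was lost without library 1 or 2 of either group (adjusted p from 0.142 to 0.24), and the list had 1 riser when vehicle 1, retinoic acid 1 or retinoic acid 2 was left out. With the block 4 partners rose and 4 fell. Of 20 peroxisomal partners 2 rose, among them the thiolase gene Acaa1b, from 0.545 ± 0.144 to 2.94 ± 1.4 CPM (SD, n = 3). The list had 1 riser when vehicle library 1 or 2 was left out, and 6 with the block. Of 20 heme and iron-sulfur genes 1 rose, the heme oxygenase gene Hmox1, at 1.83-fold (2 rose without retinoic acid library 3, and 3 with the block). None of 15 tested ribosome partners was called by edgeR, and DESeq2 called 0 as well. None of them reached an unadjusted edgeR p under 0.05, whereas 2960 of all 13700 tested genes did.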

How the data were processed

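Libraries were directional and made from polyA RNA, per the labels' protocols. The deposited table holds raw read counts per gene in 6 libraries with the authors' p-value, FDR and log2 fold change from DESeq, per the file headers. The build was mm10 (submitters' processing notes). For aligner, annotation, counter and use of strand the sources used here give nothing.

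The analysis of the counts used edgeR 4.0.16 (R 4.3.3): filterByExpr at its defaults (13700 of 21534 rows kept), TMM scaling, and glmQLFit and glmQLFTest with treatment as the only term, two-sided, over all tested genes. The SE is the log2 fold change divided by the square root of F. Replicates of a group differed by more than sampling noise (chi-square 4.09 to 11.1 per gene). Deviations of same-numbered libraries from their group means correlated at 0.166, 0.124 and 0.346, all over the limit of 0.1. Libraries 1 and 2 of opposite groups correlated at 0.0885 and 0.0922, little below 0.124. Library 3 correlated with differently numbered libraries of the other group at −0.226 to −0.178. Whether the numbers pair the samples is thus not settled. They were treated as a pairing only in an alternative fit with the replicate number as a block. The alternatives also used DESeq2 1.42.0, limma 3.58.1 (voom), other filters and left-out libraries. Exon lengths came from GENCODE vM21 (GRCm38), in which 34 of 49 members have the table's coordinates.

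Named genes were every called member, 17 members of known role, up to 4 called genes with the smallest p of each list, and Cftr, Tap1, Tap2 and Nr1i2; some of these are not reported here. Of the 123 genes in the 7 lists 122 were found in the table. The members and lists were chosen with earlier results of these data known.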

Additional observations from a re-analysis of the deposited data

How the results depend on the processing

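Abcc1, Abcc2, Abcc3 and Abcd3 were called higher in every setting but the test against a 1.5-fold change, which called 0 members; over all genes it called 99 (77 higher, 22 lower). Under that test the counts were 0 higher and 0 lower sterol partners, 0 lower anion carriers, 2 higher and 0 lower regulators, 1 higher peroxisomal gene, 0 higher heme genes, and 0 higher and 0 lower in the list of ABC genes under other names and peptide loading partners. The replicate block called 7 members higher and 2 lower and 2276 genes in all (1224 higher, 1052 lower), with 4 higher and 4 lower sterol partners, 2 lower anion carriers, 3 lower regulators, 6 higher peroxisomal and 3 higher heme genes; it changed no other named member's call. With no filter 1 member was lower, as were 4 sterol partners, and Abce1 turned to 0.00066. With limma-voom 1 sterol partner was higher. Without both libraries numbered 3, 2 members, 4 sterol partners and 2 regulators were lower, 2 heme genes were higher, and Abcg5 turned to −0.017. With 1 library left out, 4 to 5 members were higher and 0 to 1 lower, 732 to 1765 genes were called (443 to 978 higher, 289 to 787 lower), 1 to 2 sterol partners were higher, 3 to 9 regulators higher and 1 to 2 lower, 1 to 3 peroxisomal and 1 to 2 heme genes higher. The log2 fold changes of members near 0 turned sign among these fits: Abcb1a ran from −0.071 to 0.10, Abce1 from −0.037 to 0.016, Abcf1 from −0.018 to 0.060, Abcg5 from −0.085 to 0.20 and Abcg8 from −0.10 to 0.17. The cause of these shifts was not tested. Depth limits the 16 members that the filter removed.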
